A study of Mus musculus with 15 samples.

Results

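H3K27ac peaks were described at Pax3 and Foxo1, the genes joined in the oncofusion PAX3-FOXO1 (P3F), and at their paralogs Pax7 and Foxo3. A peak belonged to a gene when at least 1 bp of it overlapped the RefSeq span of the gene or the 100 kb on either side. It was a promoter peak when it lay within 2 kb of a start site, a gene body peak when it lay elsewhere in the span, and a flank peak otherwise. By this rule 109 of the 122375 listed peaks (0.0891%) belonged to the 4 genes, with 48 at Pax3, 16 at Foxo1, 3 at Pax7 and 42 at Foxo3. The tumor came from the MCP model, whose labels give Pax(3P3F/P3F) and Cdkn2a(Flox/Flox) with the reporter R26-tdTom and with Myf6-Cre. In it Cre from the Myf6 locus of muscle cells switches on P3F, removes Cdkn2a and turns on tdTomato. The mouse tumor series described here holds 15 CUT&RUN libraries, of which 6 were H3K27ac and 3 were IgG libraries from MCP tumors. It also holds 3 of each from tumors of the TCP model, in which Tek-Cre drives the same alleles. The values below come from the peak list of a single library, MCP H3K27ac replicate 5, so there are no replicates and no difference between genes was tested. The other libraries were not used here.

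PAX3 and PAX7 are transcription factors that bind DNA through a paired domain and a homeodomain, and both mark muscle progenitors, with PAX7 known as the factor of muscle stem cells. FOXO1 and FOXO3 are forkhead transcription factors that insulin and growth factor signaling through AKT keeps out of the nucleus. The fusion protein joins the DNA-binding domains of PAX3 to the activation domain of FOXO1 and drives fusion-positive rhabdomyosarcoma, a tumor with muscle features. H3K27ac, acetylation of histone H3 at lysine 27, is found at promoters and enhancers that are in use, and CUT&RUN releases the DNA that lies beside the antibody, with IgG as background. Both Pax3 alleles of the mice were engineered to make the fusion once Cre acts, with the last 2 exons of Foxo1 placed behind Pax3 coding sequence that ends at exon 7. Fragments from that copy of the Foxo1 exons and from the native Foxo1 gene cannot be told apart, and the position of a peak is its position in the reference and not on the engineered allele.

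The median listed peak was 163 bp wide, had 13 fragments over its summit and a fold enrichment of 5.22 over the local background (quartiles 4.36 and 6.51). Fold enrichment is the caller's ratio of signal to background at the summit. The number of fragments was recovered from the fold and the p of each peak, and the smallest in the list was 7, so weaker signal than this could not appear. The background is given here as the fragments that the control would put over the summit, and its lowest value, 1.05, applied to 47.0% of the peaks. For the fold, the fragments are first scaled by 0.885 to the depth of the control, and 1 is added to signal and background. Fragments are given unscaled, so their ratio to the background is not the fold. Cells were live tumor cells sorted from dissociated tumors and profiled in bulk, so fewer cells with a mark and less mark in each cell cannot be told apart. At the marker genes, 1 of 10 myogenic genes (Myf6, the locus that carries Cre, fold 5.97), 0 of 10 endothelial, 1 of 7 immune and 2 of 6 fibroblast genes had a promoter peak, against 45.6% of the 21774 protein-coding genes. The muscle genes Myod1, Myog and Des had no promoter peak, but 12, 9 and 20 peaks were listed in their flanks. The median count in span and flanks was 20 over the 10 myogenic genes and 14 over the 10 endothelial genes. It was 10 over the immune, 5.5 over the fibroblast and 14 over all protein-coding genes. Gene body peaks were listed at 0 of 10 myogenic, 4 of 10 endothelial, 0 of 7 immune and 1 of 6 fibroblast genes. The share over all protein-coding genes was 31.3%. Flank peaks can belong to other genes, and a missing promoter peak does not make a locus free of the mark.

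**Figure D1:**
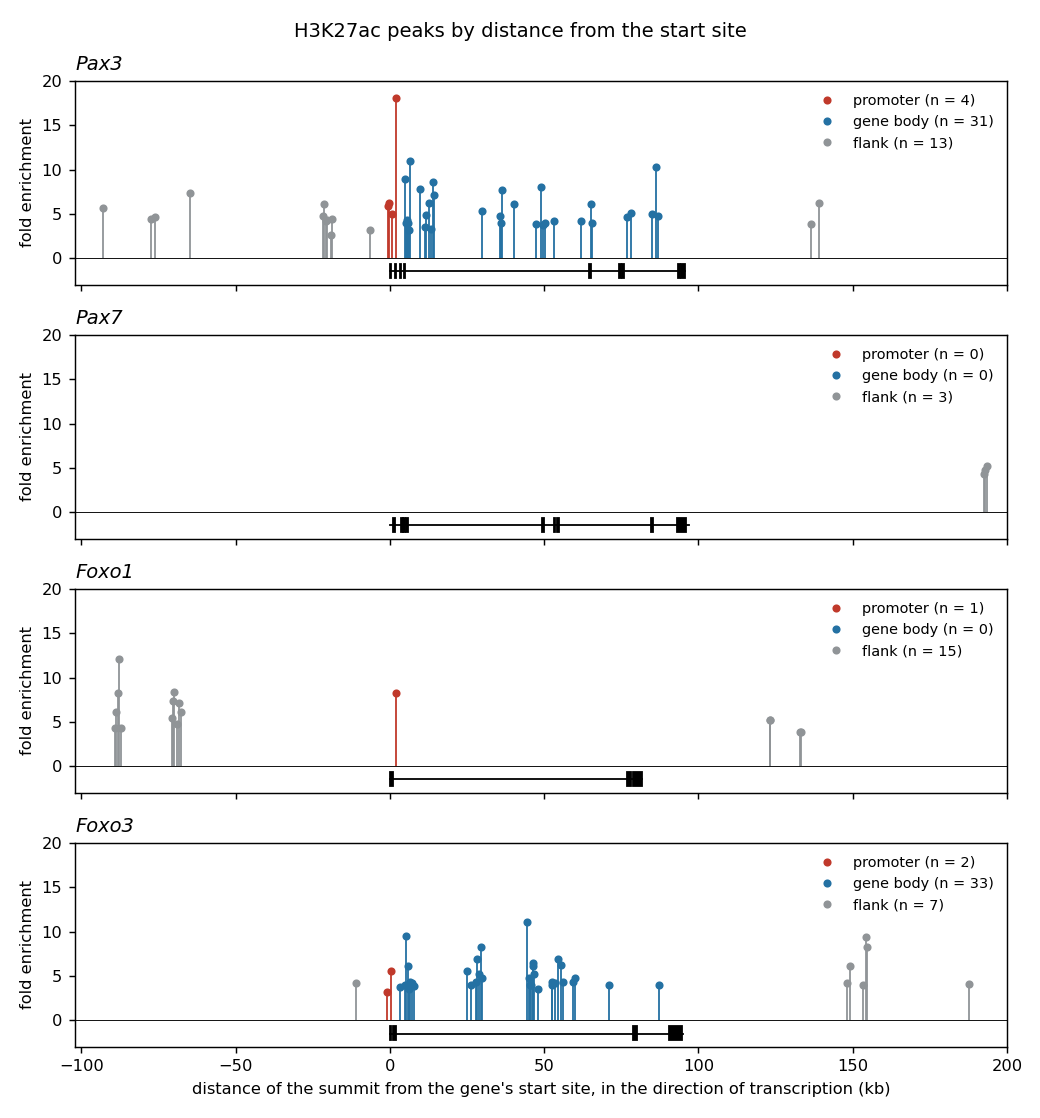
Each point is a peak, placed by the distance of its summit from the nearest start site in the direction of transcription (x, kb) and by its fold enrichment (y), with exons of the reference transcript as black boxes under each panel. Pax3 (48 peaks) and Foxo3 (42) carried peaks along the gene, whereas Pax7 (3) and Foxo1 (16) had theirs almost only in the flanks.

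The 4 genes are of like length, between 81.8 and 96.5 kb, and the peaks were spread over them very unevenly. Pax3 held 35 peaks within its promoter or body and Foxo3 held 35, while Foxo1 held 1 and Pax7 held 0. Peaks covered 16.4% of the Pax3 span, 7.91% of the Foxo3 span and 0.153% of the Foxo1 span. The flanks differed less, with 13 peaks at Pax3, 15 at Foxo1, 7 at Foxo3 and 3 at Pax7. In each of these pairs of paralogs, then, 1 gene was marked along its length and the other was not.

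Set among all protein-coding genes, Pax3 had 16.2 peaks per 100 kb of span and flanks, more than 86.5% of genes, and Foxo3 had 14.2, more than 81.9%. Foxo1 was near the middle of the genes, with 5.68 peaks per 100 kb against a median of 5.91. Pax7 had 1.01, more than 23.1% of genes. The counts behind these values depended on the flanks, since Foxo1 had 3 peaks and Pax7 had 0 with flanks of 50 kb, and with flanks of 200 kb they had 44 and 46, so that their order turned. At least 1 peak in the span or 100 kb either side was listed for 82.7% of genes, so having one sets none of the 4 genes apart. A gene body peak was listed at 31.3% of protein-coding genes, and at 65.8% of the 710 that are 80 to 100 kb long. Among those 710, the 31 body peaks of Pax3 exceeded 94.8% and the 33 of Foxo3 exceeded 95.5%, where the median gene had 3. The chromosomes themselves differed, with 6.07 peaks per 100 kb on chromosome 1, which holds Pax3, 5.03 on chromosome 10 (Foxo3), 4.26 on chromosome 4 (Pax7) and 4.23 on chromosome 3 (Foxo1), against 4.49 over the genome, and the part of this in the order of the genes was not tested.

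**Figure D2:**
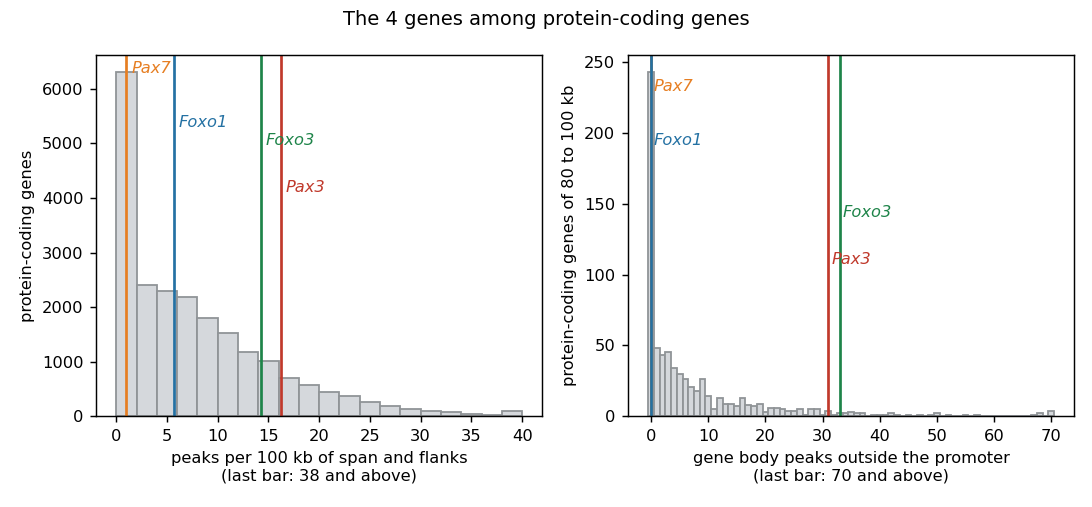
Left, the number of protein-coding genes (y) by peaks per 100 kb of span and 100 kb flanks (x), and right, the number of protein-coding genes of 80 to 100 kb (y) by gene body peaks outside the promoter (x). Colored lines mark Pax7 (1.01 per 100 kb and 0 body peaks), Foxo1 (5.68 and 0), Foxo3 (14.2 and 33) and Pax3 (16.2 and 31).

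Pax3 spans chromosome 1 from 78101267 to 78197136 in mm10 on the minus strand, with 1 start site. Its strongest peak ran from 78193123 to 78196317, a stretch of 3195 bp that takes in exons 2 and 3, with its summit in intron 2, 2.07 kb into the gene. It had 46 fragments over the summit (exact Poisson 95% interval 33.7 to 61.4), a fold of 18.1 and a -log10 q of 39.8. This was far above the rest of the locus, where the next highest fold was 11.0, and 146 peaks of the whole list had at least this fold. It reached to within 2 kb of the start site, but its summit did not, so with peaks placed by their summit Pax3 had 3 promoter peaks rather than 4.

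The other promoter peaks of Pax3 were narrower. One, from 78196449 to 78196808, reached from intron 1 into exon 1 and had 27 fragments and a fold of 4.98. Upstream of the start site, the peak from 78197294 to 78197631 had 41 fragments and a fold of 6.21, and the peak from 78197763 to 78198067 had 15 fragments and a fold of 5.94. The local background differed between them, at 4 and 5 fragments for the peaks with 27 and 41 fragments, and 1.4 for the peak with 15. By fragments only 2 of the 109 peaks exceeded the peak with 41, whereas by fold it exceeded 73.0% of the list. No listed peak covered the Pax3 start site itself, which was also true of the start sites of the other 3 genes.

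**Figure D3:**
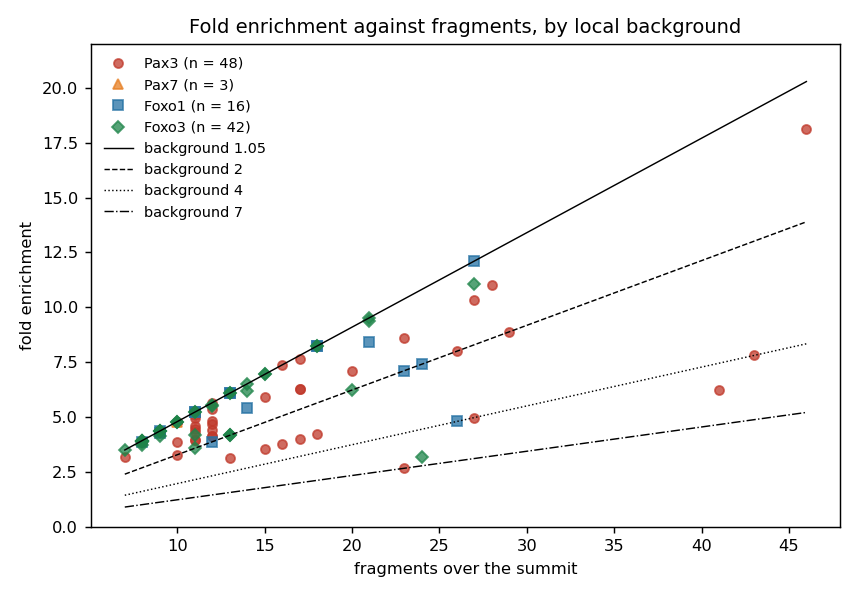
Each point is 1 of the 109 peaks, by the fragments over its summit (x) and its fold enrichment (y), and the lines give the fold that a background of 1.05, 2, 4 or 7 fragments yields. The Foxo3 and Foxo1 peaks lie mostly on or near the line of lowest background, and several Pax3 peaks with 15 to 43 fragments lie well under it.

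Most Pax3 peaks lay in intron 4, the longest intron at 60.0 kb, which held 24 of the 33 summits within the gene, or 4.00 per 10 kb. Intron 5 held 2 summits and intron 7 held 5 (2.78 per 10 kb), and no summit fell in an exon. The strongest of intron 4 ran from 78190014 to 78190743, with 28 fragments (18.6 to 40.5) and a fold of 11.0. The next in this intron ran from 78192223 to 78193029 and had a fold of 8.88. Another, from 78185863 to 78188892, was 3030 bp wide with 43 fragments, but its background was 4 and its fold 7.81. The part of the gene from exon 1 to exon 7, which the fusion keeps, held 28 summits in 75.6 kb, and the 20.3 kb beyond exon 7 held 5.

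Those 5 peaks all lay in intron 7, the intron in which PAX3 breaks in human tumors with the fusion. They included the second strongest gene body peak of Pax3, from 78110401 to 78110952, with 27 fragments (17.8 to 39.3) and a fold of 10.4. The other 4 had 10 or 11 fragments and folds from 4.61 to 5.07. Their median fold was 4.94, close to the 4.81 of the 28 summits before it. The sequences at the summits of the 2 strongest gene body peaks are given below because they are the highest of the gene body class, one on each side of exon 7, after the stronger peak at the promoter. They are read from GRCm38, the build of mm10, on the minus strand and 5′ to 3′, with the 11 bases centred on the summit in capitals.
Pax3 intron 4, chr1:78190430-78190569: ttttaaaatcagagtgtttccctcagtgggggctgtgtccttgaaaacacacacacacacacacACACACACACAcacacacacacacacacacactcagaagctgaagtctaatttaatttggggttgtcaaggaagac
Pax3 intron 7, chr1:78110676-78110815: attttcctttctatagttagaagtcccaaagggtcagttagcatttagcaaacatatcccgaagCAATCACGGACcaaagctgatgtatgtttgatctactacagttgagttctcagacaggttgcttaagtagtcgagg
The window in intron 4 held a run of 50 bases of alternating C and A that included the summit, and the part of read mapping in such a repeat was not tested. The longest such run in the window of intron 7 was 2 bases.

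The flank peaks of Pax3 reached lower folds than those in the gene. The strongest, from 78261642 to 78261783, lay 64.6 kb upstream with 16 fragments and a fold of 7.37. The next, from 78057723 to 78058066, lay 43.3 kb beyond the end of the gene and had a fold of 6.26. The third, from 78218401 to 78218672 (fold 6.08), was 1 of 4 peaks at the promoter of Gm2102, a predicted protein-coding gene that starts 21.1 kb upstream of Pax3. Gm33152, a long noncoding RNA gene that starts 4.09 kb upstream in the opposite direction, had no promoter peak. In another peak within Gm2102, from 78216021 to 78216192, 23 fragments stood against a background of 7, and the fold of 2.67 was the lowest of the 109 peaks. With gaps of up to 12.5 kb bridged, 24 peaks from intron 4 through the Pax3 promoter to Gm2102 formed a run of 37.2 kb, of which 33.8% was covered, and 18 peaks further into the gene formed another of 57.3 kb, of which 8.48% was covered.

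Pax7, the paralog of Pax3, spans chromosome 4 from 139737059 to 139833530 on the minus strand and has 4 start sites. It had 0 promoter peaks and 0 gene body peaks. Genes of 80 to 100 kb had a promoter peak in 59.6% of cases. Its intron 4, at 43.9 kb the longest of the gene as in Pax3, held 0 summits, and its intron 7, at 30.4 kb, held 0. The gene sat in a stretch of 513 kb without any listed peak, from 96.6 kb past its end to 320 kb beyond its start. No peak number was absent across this stretch, so no numbered peak was left out there. The 3 peaks counted for Pax7 were all within the neighboring gene Aldh4a1, which encodes a mitochondrial enzyme of proline breakdown, and they lay between 96.7 and 97.6 kb past the end of Pax7, just inside the limit of 100 kb. They had 11, 10 and 9 fragments and folds of 5.22, 4.79 and 4.36. Of the 6 other genes that start in its flanks or beside it (Mir7020, Tas1r2, Gm42334, Gm46873, Gm1667 and 4933427I22Rik), none had a promoter peak. The strongest of the 3 peaks is printed whole, on the strand of Pax7, as an example of the peaks that the limit of 100 kb assigns to Pax7, with the 11 bases centred on the summit in capitals.
Pax7 flank, chr4:139639438-139639515: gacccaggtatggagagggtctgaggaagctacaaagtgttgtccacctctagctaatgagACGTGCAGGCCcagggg

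Foxo1 spans chromosome 3 from 52268337 to 52350109 on the plus strand, with 3 exons and 1 start site. Its only peak within the gene ran from 52270242 to 52270366, in intron 1 with the summit 1.96 kb from the start site, and had 18 fragments (10.7 to 28.4) and a fold of 8.24. The summit lay just inside the promoter limit of 2 kb, and with a limit of 1 kb Foxo1 had 0 promoter peaks. The 79.7 kb from there to the end of the gene held no peak, nor did the stretch before it. Intron 1, at 75.6 kb, is the intron in which FOXO1 breaks in human tumors with the fusion, and it held 0.132 summits per 10 kb against 2.78 in intron 7 of Pax3. Exons 2 and 3, from 52345039 to 52350109, supply the Foxo1 side of the fusion and are carried again in the Pax3 locus of these mice, and no peak overlapped them. The peak of intron 1 is printed whole on the plus strand because it is the only mark within the gene, with the 11 bases centred on the summit in capitals.
Foxo1 intron 1, chr3:52270242-52270366: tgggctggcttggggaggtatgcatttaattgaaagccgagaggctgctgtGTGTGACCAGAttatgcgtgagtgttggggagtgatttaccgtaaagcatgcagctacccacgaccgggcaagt

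The flanks of Foxo1 held 15 peaks in 3 groups. The first, 5 peaks over 1.81 kb, lay 87.2 to 89.0 kb upstream around the start site of Gm30074, a long noncoding RNA gene read away from Foxo1. It held the strongest Foxo1 peak, from 52180344 to 52180869, with 27 fragments (17.8 to 39.3) and a fold of 12.1, and the third strongest, from 52179955 to 52180199, with 18 fragments and a fold of 8.24. The second group, 6 peaks over 3.30 kb, lay 67.8 to 70.7 kb upstream and outside any annotated gene. Peaks covered 71.1% of it, and its strongest, from 52198313 to 52198550, had 21 fragments and a fold of 8.42. The third group, 4 peaks over 10.2 kb, lay 41.3 to 51.4 kb past the end of the gene, with 8 to 12 fragments and folds from 3.86 to 5.22. The other genes that start in these flanks, Gm30125 and the pseudogenes Olfr1398-ps1 and Gm34303, had no promoter peak. The strongest of the first group is printed on the plus strand as the highest signal in the region, with the 11 bases centred on the summit in capitals.
Foxo1 flank, chr3:52180374-52180513: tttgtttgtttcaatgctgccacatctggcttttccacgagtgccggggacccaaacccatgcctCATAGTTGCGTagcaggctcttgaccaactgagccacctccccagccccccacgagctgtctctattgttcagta

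Foxo3 spans chromosome 10 from 42181845 to 42276695 on the minus strand and has 1 start site. It had 2 promoter peaks. The one from 42276175 to 42276269, in intron 1 and 0.471 kb into the gene, had 12 fragments and a fold of 5.51, a little above the median of the list. The one from 42277174 to 42277559, 0.805 kb upstream, had 24 fragments, but its background was 6 and its fold 3.18, which exceeded 1.92% of the list. Neither was among the strongest 25% of the list by p. The 33 gene body peaks had a median fold of 4.36 and a median of 10 fragments, so the body was set apart by the number of its peaks and not by their strength.

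Of the 33 gene body peaks of Foxo3, 32 had their summit in intron 2, at 76.9 kb the longest of the gene, which is 4.16 per 10 kb. This is the counterpart in length of intron 1 of Foxo1, which at 75.6 kb held 1 summit. The strongest, from 42231975 to 42233010, was 1036 bp wide and lay 44.5 kb into the gene, with 27 fragments (17.8 to 39.3) and a fold of 11.1. The second, from 42271279 to 42271586, lay 5.19 kb into the gene with 21 fragments and a fold of 9.53. The third, from 42247038 to 42247553, lay 29.4 kb into the gene with 18 fragments and a fold of 8.24. With gaps of 12.5 kb bridged, the peaks fell into runs of 17 peaks over 27.5 kb, 7 peaks over 5.42 kb and 11 peaks over 18.8 kb, the last with both promoter peaks, and 1 peak stood alone in intron 3. Gm38485, a noncoding RNA gene that starts 1.89 kb from Foxo3 and is read the same way, overlaps the last 2 runs, and peaks there cannot be given to either gene. The summit of the strongest body peak is printed on the minus strand as the highest signal in Foxo3, with the 11 bases centred on the summit in capitals.
Foxo3 intron 2, chr10:42232139-42232278: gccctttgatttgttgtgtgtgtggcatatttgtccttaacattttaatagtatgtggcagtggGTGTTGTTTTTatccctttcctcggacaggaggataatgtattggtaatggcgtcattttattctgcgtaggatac

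Foxo3 had 7 flank peaks, of which 6 lay past the end of the gene. The strongest, from 42122285 to 42122953, lay 59.5 kb past the end with 21 fragments and a fold of 9.36, beside a peak from 42121851 to 42122154 with a fold of 8.24. Another, from 42127542 to 42128014, had a fold of 6.08. These 3 were in a group of 5 peaks over 6.83 kb that lay outside any annotated gene. Upstream there was 1 peak, 11.0 kb from the start site, with 13 fragments and a fold of 4.17. Gm40630, a noncoding RNA gene that starts in the flank past the end of Foxo3, had no promoter peak.

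**Figure D4:**
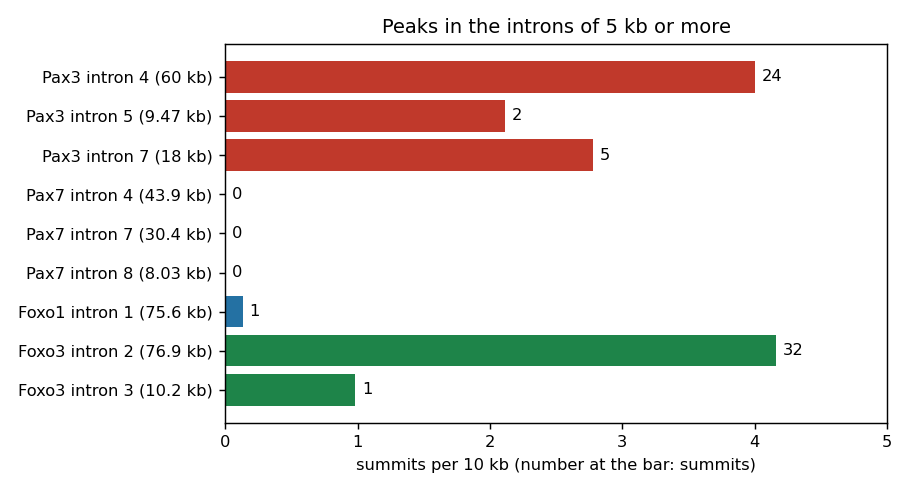
Bars give the summits per 10 kb (x) in each intron of 5 kb or more (y, with its length), and the number at each bar is the count of summits. The longest introns of Pax3 (24 summits in intron 4) and Foxo3 (32 in intron 2) held many summits, and those of Pax7 (0) and Foxo1 (1) did not. Peaks covered 17.2% of Pax3 intron 4 and 9.39% of Foxo3 intron 2.

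Peak strength did not follow peak number. The median fold was 5.74 at the 16 peaks of Foxo1 (95% interval of the median 4.36 to 8.24) and 4.79 at the 48 of Pax3 (4.32 to 5.94). It was 4.79 at the 3 of Pax7 and 4.36 at the 42 of Foxo3 (4.17 to 5.22). These intervals treat the peaks as independent draws. Peaks of 1 list are not replicates, so the intervals do not compare the genes. Over all 109 peaks the median fold was 4.79, under the 5.22 of the whole list. Of the 109, 28 peaks (25.7%) were among the strongest 25% of the list by p, with 14 at Pax3, 6 at Foxo1, 0 at Pax7 and 8 at Foxo3. Depth limits what single peaks can show, since 88 of the 109 had fewer than 20 fragments, as had 84.2% of the whole list. The background also differed between the genes. It was at its lowest value at 27 of the 42 Foxo3 peaks, 8 of the 16 Foxo1 peaks, 3 of the 3 Pax7 peaks and 9 of the 48 Pax3 peaks. Its median at the Pax3 peaks was 1.44, so a Pax3 peak needed more fragments than a Foxo3 peak for the same fold.

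Median width was 152 bp at Pax3, 228 bp at Foxo1, 86 bp at Pax7 and 141 bp at Foxo3, against 163 bp over the list. Peaks of at least 1 kb made up 5 of the 109 (4.59%), near the 4.74% of the list. Of these 5, 4 were at Pax3 and 1 was at Foxo3, while the widest at Foxo1 was 730 bp and at Pax7 113 bp. The peak of 3195 bp at the Pax3 promoter was 1 of 149 in the list that were at least that wide.

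The 200 bp around each summit had a median GC content of 43.8% at Pax3, 46.5% at Foxo1, 48.3% at Foxo3 and 59.5% at Pax7, against 45.5% over all peaks. The motif searches covered both strands of these windows. The palindromic homeodomain dimer sites that PAX3 can bind, TAAT and ATTA with 2 or 3 bases between them, were found at 0 of the 109 peaks, and at 0.449% and 0.435% of all peaks. The paired-domain core GTCACGC was found at 0 and 0.537%, and GTCACGG at 1 (0.917%) and 0.820%. The forkhead site GTAAACA was found at 1 of the 109 (0.917%) and 3.25% of all peaks. CAGCTG, an E-box that MYOD1 binds, was found at 8 (7.34%) and 9.97%, and the AP-1 site TGANTCA at 4 (3.67%) and 7.99%. With so few expected, these counts describe the windows and carry no order between the genes. None of these motifs lay in the strongest peaks printed above as far as the windows of 200 bp reach.

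The single paired-domain and forkhead matches are printed with 10 bases on either side. They are the only exact matches to the homeodomain dimer, paired-domain and forkhead strings searched. Shorter or variant cores were not searched. Both are on the strand of the named gene, with the match in capitals, here the reverse complement of the motif as written above. The first lies within Gm2102, in a Pax3 flank peak with 12 fragments and a fold of 4.40. The second lies in a Foxo3 gene body peak with 9 fragments and a fold of 4.36. Both peaks are in the weaker part of the list.
Pax3 flank, chr1:78215714-78215740: tccccttttcCCGTGACactcccccac
Foxo3 intron 2, chr10:42269957-42269983: tatgtatttcTGTTTACttagtgcctc

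RefSeq promoter windows, from 250 bases before to 50 after a start site, were at hand for 3 of the 4 genes, Foxo1, Foxo3 and Pax7. None of the 3 overlapped a listed peak, as was the case for most windows, of which 13.4% of 32851 did. The windows held 31 CpG sites at Foxo1, 35 at Foxo3 and 17 at Pax7.

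The related gene families were marked in a mixed way. In the PAX family, 4 of 9 genes had a promoter peak, namely Pax3, Pax5 (fold 6.94), Pax6 (5.22) and Pax9 (4.61), where each value is the strongest promoter fold. Pax8 had 0 promoter peaks but 16 in its body and 16 in its flanks. In the FOXO family 2 of 4 had a promoter peak, Foxo1 and Foxo3, while Foxo4 and Foxo6 had none and carried 12 and 4 flank peaks. These shares, 44.4% and 50.0%, were near the 45.6% of all protein-coding genes.

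Genes that work with PAX3 in muscle had a promoter peak in 4 of 8 cases, 50.0%. Eya2 (fold 9.96) and Six4 (9.53) were the strongest, Eya4 had 7.41 and Eya1 3.12, and Lbx1, Dach1, Meox1 and Meox2 had none. The products of Six4 and of the Eya genes form a complex that acts with PAX3 upstream of the muscle regulators. Among 10 known targets of P3F, 5 had a promoter peak, 50.0%, namely Met (9.96), Igf1r (8.24), Skp2 (8.24), Jarid2 (7.70) and Cnr1. Fgfr4, Myod1, Myog, Mycn and Alk had no promoter peak, but each had peaks in its flanks. The shares of both lists were near the 45.6% of all protein-coding genes. Met and Igf1r encode growth factor receptors, and around Met 85 peaks were listed within the span and flanks, the most of any gene of these lists.

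The regulators and targets of the FOXO factors carried more. All 8 genes of the regulator list had a promoter peak (Wilson 95% interval 67.6 to 100%), with Akt2 (11.5) and Akt1 (9.10), kinases that phosphorylate FOXO proteins, Pik3ca (8.59), a subunit of the kinase upstream of them, and Pdpk1 (8.24), a kinase that activates them. Among 13 known FOXO targets 10 had one (76.9%, 49.7 to 91.8%), with Cdkn1b (13.2), a cell cycle inhibitor, and Txnip (10.2), Bcl6 (9.96) and Gadd45a (8.92) as the strongest. Fbxo32 and Trim63, ligases of muscle atrophy, and Irs2 had none. These lists were chosen with results of the data known and mix genes of different promoter types, so their shares are descriptions of this list of peaks.

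**Figure D5:**
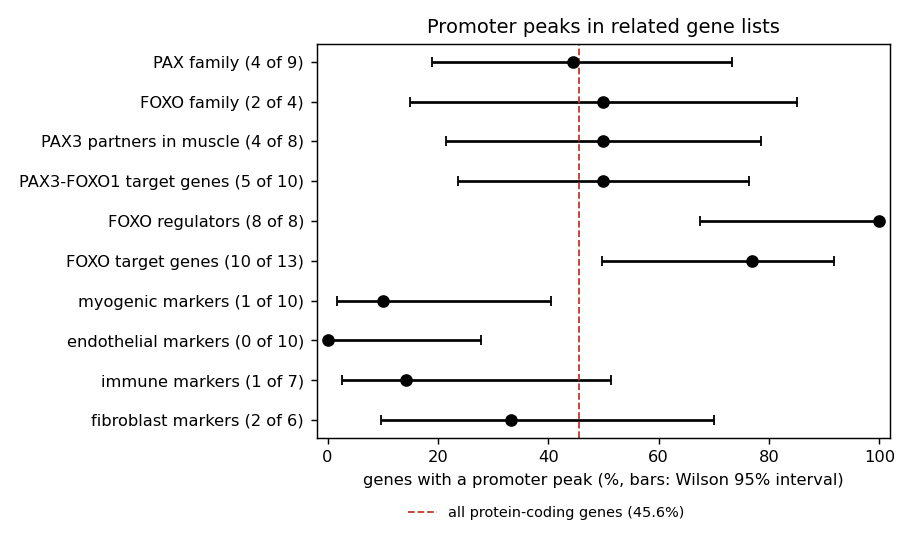
Points give the share of genes with a promoter peak (x, %) in each list (y, with counts), bars are Wilson 95% intervals for counting error only, and the dashed line is the 45.6% of all protein-coding genes. The regulators of FOXO (8 of 8) and its targets (10 of 13) lie to the right of the line and the endothelial (0 of 10) and myogenic markers (1 of 10) to its left.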

How the data were processed

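H3K27ac was profiled by CUT&RUN in live cells sorted from a dissociated MCP tumor, and 1 deposited peak list was analyzed. Its library number stands only in the description of the sample titled MCP H3K27ac 5, and that description calls the library MCP_H3K27ac_1. The replicate number used here is that of the title. The submitters' processing notes name BWA, SAMtools, MACS2 and the builds mm10 and dm6, while the methods of the study describe bowtie and MACS1.4 with an IgG control and the removal of problematic regions, so the tools and threshold behind the list are not settled here (largest q 0.0471). The deposited score equaled the whole part of 10 times the -log10 q in 100% of rows. The authors' caller wrote the fold enrichment, a ratio of signal to local background at the summit, and the deposited -log10 p and -log10 q of each summit, and the summit offset.

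Fragments over the summit were recovered by solving fold and p together for a whole number, with a scale of 0.885 between libraries and a tolerance of 0.001 in -log10 p, and 122369 of 122375 peaks were solved, including all 109 used here. The scale puts the H3K27ac library at 1.13 times the depth of its control. The steps of the background gave a fragment window of 78 bp, which with the default mouse genome size of the caller implies a library of 28.6 against 25.3 in the control, in units of 1000000 fragments. These numbers are inferred. Intervals for fragments and shares cover counting error only, and those for medians treat the peaks of 1 list as independent draws. Exact Poisson 95% intervals were given for fragments, Wilson intervals for shares and order statistics for medians.

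RefSeq and GENCODE models of GRCm38 were used with Python 3.11.15, numpy, pandas and scipy, and steps were tested on simulated data. Peaks were counted with an overlap of at least 1 bp. The genes, lists and motifs were chosen with earlier results of these data known. The text names every promoter peak of the 4 genes (up to 5), the 3 strongest by fold in each gene body and flank, the genes that start in the flanks, and up to 4 genes with values for each list. Some genes of the lists are not reported here and are in no count of a list. Further peaks were named after their values were seen, for width, background or motif. No tests were run, since peaks of 1 list are not replicates. Of the peak numbers, 584 were absent from the list, none of them between the peaks of a gene described here. The alternatives were stricter peak thresholds, flanks of 50 and 200 kb, placing by summit, a 1 kb promoter, other gene models, a 100 bp motif window and a scale 3% off.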

Additional observations from a re-analysis of the deposited data

How the results depend on the processing

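The list is of 1 library, so no replicate could be left out, and no paired analysis was possible because a single peak list has nothing to pair. A gene without peaks may carry signal under the 7 fragments at which listing began. When only a -log10 q of 5 or more was accepted, the counts were 43 in all, 19 at Pax3, 10 at Foxo1, 0 at Pax7 and 14 at Foxo3, where 1 promoter peak was left, with a median fold of 6.94, and the share of protein-coding genes marked at the promoter was 38.0%. Among the strongest 25% they were 28, 14, 6, 0 and 8, with 0 promoter peaks at Foxo3, a median fold of 8.12 and 29.7% of genes. Both settings raise the median by construction. With flanks of 50 kb Foxo1 had 3 peaks and Pax7 had 0. With flanks of 200 kb the counts were 44 at Foxo1, 46 at Pax7 and 212 in all. A promoter of 1 kb left 0 promoter peaks at Foxo1 and gave 43.6% of genes with a promoter peak, and GENCODE models gave 46.7%. A motif window of 100 bp held GTAAACA at 0 peaks, CAGCTG at 3 and TGANTCA at 1. With the scale 3% off, 0.0400% of peaks were solved. Gene body peaks at Pax3 and Foxo3, 31 and 33 in the full list, fell to 11 and 10 at a -log10 q of 5 and to 9 and 6 among the strongest 25%, and were 31 and 33 with RefSeq curated and GENCODE models. Foxo1 and Pax7 had 0 under these settings, and Foxo1 had 1 with the 1 kb promoter.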
